A study of Homo sapiens with 6 samples.

Results

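The MYC, MAX and MXD network is a small family of transcription factors, and it was followed here through the 9 genes MYC, MYCL, MAX, MXD1, MXD3, MXD4, MXI1, MNT and MGA, chosen by symbol from the 58395 genes in the count tables. RNA was sequenced from THP-1, a human monocytic leukaemia cell line, in 3 samples exposed to 1 µM monensin for 16 h and in 3 samples labelled as having no exposure. Monensin is an ionophore that exchanges sodium ions for protons across membranes. The labels name no vehicle, so monensin and its solvent, if one was used, cannot be told apart. They also do not say whether the 3 samples of a group came from separate cultures, so p-values reflect only the spread among these libraries, and that spread may be technical.

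Proteins of this network bind DNA as pairs built around MAX. MYC and MYCL pair with MAX at E-box sites and raise the transcription of genes for growth and division. MXD1, MXD3, MXD4, MXI1 and MNT compete for MAX and bring in repressor complexes that hold SIN3 proteins and histone deacetylases, and MGA carries MAX into the Polycomb complex PRC1.6. In myeloid cells MXD1 is known as a gene that is switched on as cells mature while MYC is switched off. Only transcripts were measured here, and the short-lived MYC protein is controlled at many later steps.

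Gene counts came to between 22975888 and 25710513 per library. Mitochondrial genes took 0.921% ± 0.0321 of them in monensin libraries and 4.95% ± 0.163 in untreated libraries, and leaving these genes out changed no call of a network gene. All 8 monocytic markers fixed for this check were detected, with a summed level of 1071 to 1118 CPM (depth-scaled counts) in monensin libraries and 1561 to 1628 CPM in untreated libraries. Of these markers 2 rose (SPI1 by 0.34 and CD68 by 1.10 on the log2 scale), 4 fell (LYZ, CD33, MPO and PTPRC) and 2 were not called. LYZ (lysozyme) had the largest drop, with 292 ± 24.2 CPM with monensin and 791 ± 14.3 CPM untreated. The lower sum came almost wholly from LYZ. These markers were named after their values were seen, and the part of their changes in the results was not tested. Of 8 markers of other lineages, CD3E, EPCAM, HBB and KRT18 had 0 counts in every library. The summed level of that list was 309 to 331 CPM in monensin libraries and 260 to 268 CPM in untreated libraries, and most of it came from PECAM1, which monocytes also express. In bulk RNA, fewer cells of a type and less RNA per cell cannot be told apart. Reads that fell in no annotated gene made up 10.9% ± 0.441 of tallied alignments in monensin libraries and 8.80% ± 0.191 in untreated libraries (mean ± SD, n = 3), and the part of this difference in the results was not tested.

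All 9 genes changed. By edgeR's quasi-likelihood test at an adjusted p under 0.05, 6 rose (MXD1, MXD4, MNT, MYCL, MAX and MXI1) and 3 fell (MXD3, MGA and MYC). The same test called 67.8% of all 16542 tested genes, 34.1% raised and 33.7% lowered, so a call by itself is common in this comparison. MXD1 was the only member past a 2-fold change, which 9.41% of tested genes passed upward and 3.83% downward. The monensin and untreated CPM values did not overlap for any member, nor for 71.1% of tested genes (monensin above in 35.9% and below in 35.2%). The median log2 fold change was 0.27 over the members and 0.02 over all tested genes, and the median absolute log2 fold change was 0.36 over the members and 0.39 over all tested genes. CPM is the usual depth-scaled count, with library sizes adjusted by the trimmed mean of M values (TMM), and a log2 fold change is monensin over untreated, so a positive value means a higher level with monensin.

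**Figure D1:**
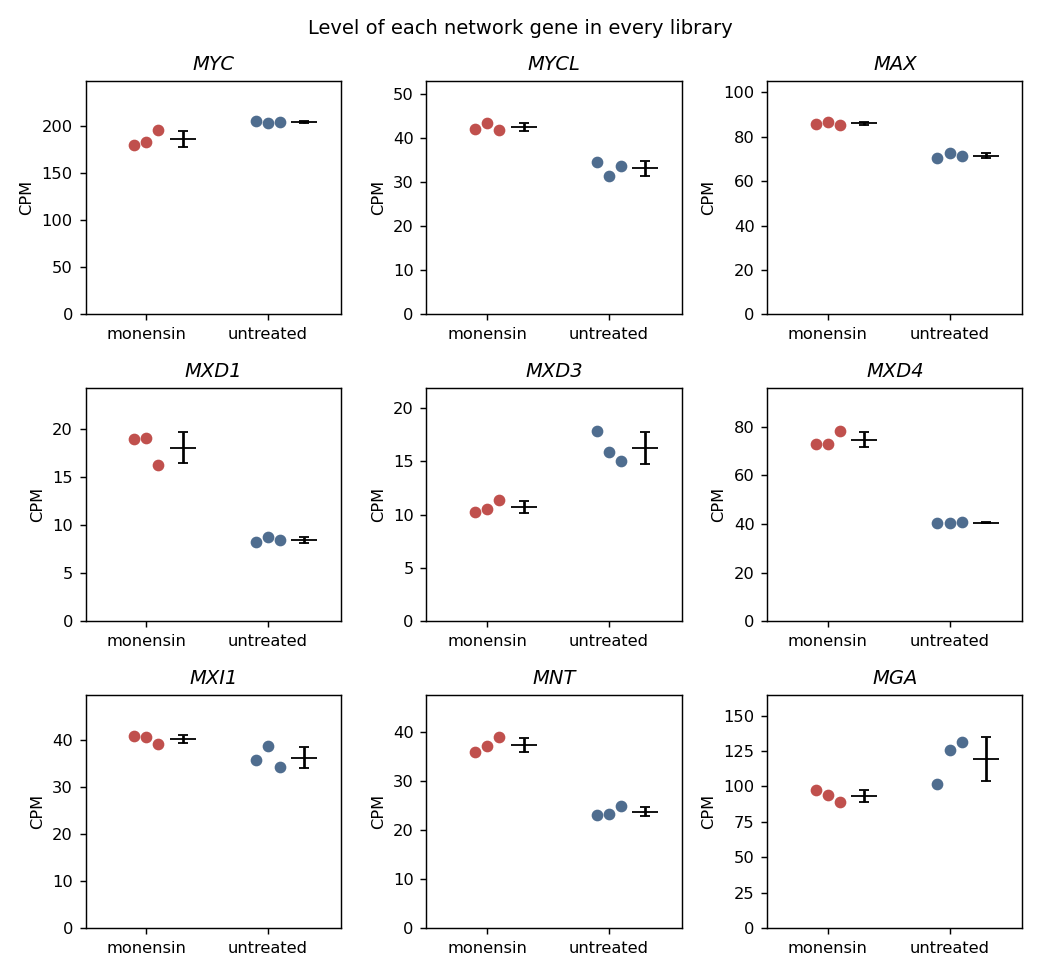
CPM of each of the 9 network genes in every library, on axes that start at 0; red points are the 3 monensin libraries, blue points the 3 untreated libraries, and black marks the mean ± SD. MXD1, MXD4 and MNT stand well above the untreated libraries with monensin, MXD3 and MGA stand below them, and MYC moves little (186.5 against 204.8 CPM).

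MYC, the oncoprotein gene that gives the network its name, was lowered by a small amount. It lies on chromosome 8 from 127735434 to 127741434 on GRCh38. Its counts were 4621, 4591 and 4575 in the monensin libraries and 5125, 4756 and 5065 in the untreated libraries. Scaled to depth these were 180.0, 183.6 and 196.0 CPM with monensin, all below the 205.5, 203.9 and 204.9 CPM of the untreated libraries. The log2 fold change was -0.13 (standard error 0.04, 95% interval -0.23 to -0.04, adjusted p = 0.0110), a level 0.911 times that of the untreated libraries. The call was lost under 3 of 15 alternatives. With total counts alone the log2 fold change was -0.049 (adjusted p = 0.286), and without monensin library 1 it was -0.11 (adjusted p = 0.0654). A limit of 0.01 on the adjusted p also lost the call. After correction for GC content and length the call was kept, with a log2 fold change of -0.31 (adjusted p = 3.67e-07).

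MYCL, the family member first found in lung cancer and also expressed in myeloid cells, went the other way. Its counts were 1081, 1090 and 980 in the monensin libraries and 862, 731 and 831 in the untreated libraries. The groups were separate, with 42.6 ± 0.896 CPM with monensin and 33.2 ± 1.65 CPM untreated (SD, n = 3 each). It rose by 0.36 on the log2 scale (standard error 0.06, adjusted p = 3.4e-05), and by 0.23 after correction for GC content and length. MYCN, the neural family member, had 0 counts in all 6 libraries.

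MAX, the shared dimerization partner of the network's proteins, rose slightly. It had 2206, 2170 and 1994 counts in the monensin libraries and 1758, 1694 and 1758 counts in the untreated libraries. The values within each group were close together, at 86.0 ± 0.692 CPM with monensin and 71.4 ± 1.11 CPM untreated. Its log2 fold change was 0.27 (standard error 0.04, adjusted p = 5.93e-05).

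The 6 antagonists split, with MXD1, MXD4, MNT and MXI1 raised and MXD3 and MGA lowered. MXD1, a repressor linked to the maturation of myeloid cells, had the largest change of the 9 genes. It lies on chromosome 2 from 69897688 to 69942945. Its counts were 486, 477 and 379 in the monensin libraries and 205, 205 and 208 in the untreated libraries. Monensin library 3, at 16.2 CPM, was the lowest of its group and still above the highest untreated value of 8.79 CPM. The level was 2.14 times the untreated one (95% interval 1.89 to 2.41), a log2 fold change of 1.10 (standard error 0.08, adjusted p = 1.21e-08). The authors' deposited table of 2410 genes holds no absolute log2 fold change below 1.00, and MXD1 is the only one of the 9 in it, with a log2 fold change of 1.07. The other members are below that limit in the present fit. Of the tested genes, 91.9% had a lower log2 fold change.

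MXD4, a relative that also recruits SIN3 proteins and is found in differentiating cells, followed MXD1. It had 1872, 1819 and 1825 counts in the monensin libraries and 1008, 945 and 1007 in the untreated libraries. The untreated libraries were nearly identical at 40.6 ± 0.165 CPM, and the monensin libraries stood at 74.6 ± 3.08 CPM. The log2 fold change was 0.88 (standard error 0.05, adjusted p = 4.88e-10). MNT, the broadly expressed antagonist that faces MYC in most cell types, had 923, 926 and 907 counts in the monensin libraries and 575, 542 and 613 in the untreated libraries. The groups were far apart relative to their spread, with 37.3 ± 1.46 CPM with monensin and 23.7 ± 0.958 CPM untreated, and MNT rose by 0.65 on the log2 scale (standard error 0.06, adjusted p = 9e-08).

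MXI1, also called MXD2, changed least among the antagonists. Its counts were 1049, 1016 and 916 in the monensin libraries and 895, 903 and 848 in the untreated libraries. The lowest monensin value, 39.2 CPM, was just above the highest untreated value, 38.7 CPM. The log2 fold change was 0.15 (standard error 0.06, adjusted p = 0.0311). This call was lost under 7 of 15 alternatives, among them DESeq2 (adjusted p = 0.0837) and the fits without monensin library 1 (adjusted p = 0.0887), monensin library 2 (adjusted p = 0.104), untreated library 1 (adjusted p = 0.0858) or untreated library 3 (adjusted p = 0.187, log2 fold change 0.10). It was 0.24 with total counts alone and 0.26 after correction for GC content and length.

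MXD3, a repressor found in dividing cells during S phase, fell. It had 263, 264 and 265 counts in the monensin libraries and 446, 371 and 371 in the untreated libraries. Untreated library 1, at 17.9 CPM, was the highest, and all monensin libraries, at 10.2 to 11.4 CPM, were below every untreated library. The log2 fold change was -0.60 (standard error 0.08, adjusted p = 9.11e-06). Its count is uncertain because its exons overlap those of expressed genes more than those of any other member do. PRELID1, on the opposite strand, covers 22.5% of the exonic length of MXD3, and RAB24, on the same strand, covers 17.97%. RAB24 rose by 0.85 on the log2 scale (standard error 0.11), and PRELID1 had a log2 fold change of -0.39 (standard error 0.05). Whether reads were counted by strand is not stated in the labels, and the part of these overlaps in the change of MXD3 was not tested. Overlaps of other members were smaller: for MNT 12.2% of exonic length with AC006435.1, which had at most 1 count in a library, and for MXD1 3.73% with SNRNP27 on the same strand, which had 540 to 747 counts and a log2 fold change of -0.23 (standard error 0.07).

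MGA, the very large protein that joins a T-box domain to the network's dimerization domain, was also lower with monensin, and among untreated libraries it had the widest spread of the 9 genes. Its counts were 2504, 2340 and 2073 in the monensin libraries and 2542, 2931 and 3237 in the untreated libraries. Untreated library 1, at 101.9 CPM, was near the highest monensin value of 97.5 CPM, while the other untreated libraries had 125.7 and 131.0 CPM. The coefficient of variation was 4.69% with monensin and 12.9% untreated. The log2 fold change was -0.36 (standard error 0.07, adjusted p = 0.000502). After correction for GC content and length it was -0.13 (adjusted p = 0.0284).

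The spread of MGA ran with that of other long transcripts, a comparison chosen after its values were seen. Among 563 tested genes whose longest transcript has at least 10000 nt, the median deviation from the group mean was -0.09 on the log2 scale in untreated library 1 and 0.04 and 0.06 in untreated libraries 2 and 3. MGA deviated by -0.22, 0.08 and 0.14 in the same libraries. In monensin libraries 1, 2 and 3 the long genes deviated by 0.04, 0.01 and -0.05, and MGA by 0.07, 0.01 and -0.07. Of these long genes 49.6% were lowered, against 33.1% of the other 15965 tested genes with a length, and their median log2 fold changes were -0.19 and 0.03. MGA has 17651 nt of merged exons with 42.0% GC, and the correction above removes both trends at once, so the part of transcript length alone in the lower MGA level was not tested.

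**Figure D2:**
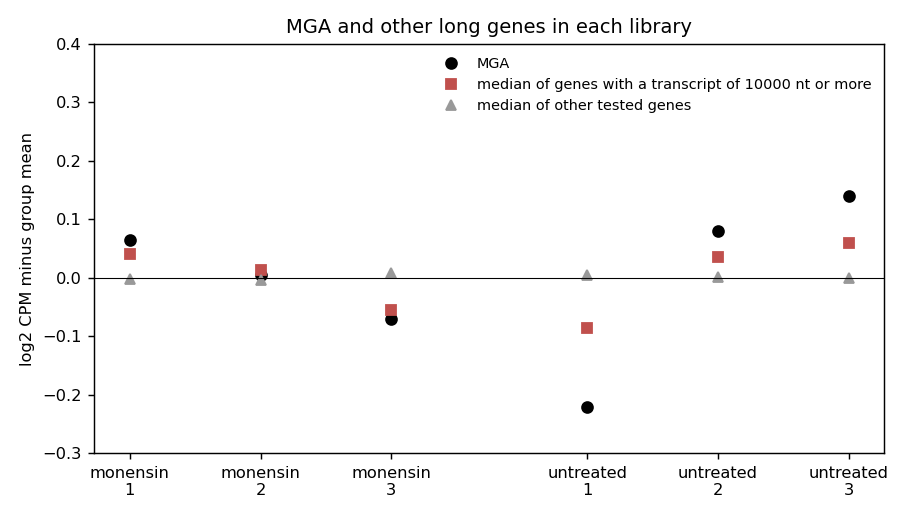
Deviation of each library from its group mean on the log2 CPM scale, for MGA (black circles), the median of 563 genes with a transcript of at least 10000 nt (red squares) and the median of the other tested genes (grey triangles). MGA and the long genes are both lowest in untreated library 1 (-0.22 and -0.09) and in monensin library 3 (-0.07 and -0.05) of their groups.

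The plot of changes with intervals places the 9 genes in order. MXD1, MXD4 and MNT had intervals wholly above 0.5 on the log2 scale, and those of MYCL, MAX and MXI1 were above 0 but lower. For MXD3, MGA, MXD1, MXD4, MNT, MYCL and MAX, all 15 alternatives gave the same direction and kept the call.

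**Figure D3:**
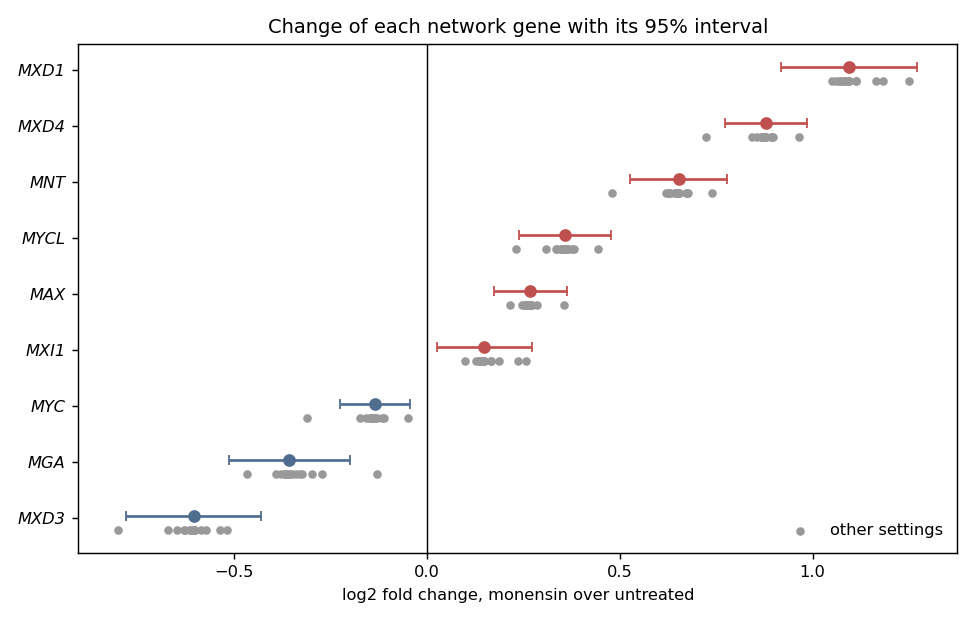
Log2 fold change of each network gene, monensin over untreated, with its 95% interval from the edgeR fit (red raised, blue lowered); grey points below each are the 15 other settings of processing. MXD1, MXD4 and MNT lie highest, MXD3 lowest, and the points for MYC reach -0.049 at their nearest to 0.

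Levels of different genes were compared per kilobase of exon (RPKM), since longer transcripts give more reads. MYC was by far the most abundant of the 9 in both groups, with 62.2 ± 2.79 RPKM with monensin and 68.2 ± 0.259 RPKM untreated, above 95.8% and 96.0% of tested genes. MAX was second at 19.4 ± 0.156 RPKM with monensin and 16.1 ± 0.250 RPKM untreated. With monensin the order went on with MXD4, MXI1, MYCL, MGA, MNT, MXD1 and MXD3, from 10.6 RPKM for MXD4 to 2.08 RPKM for MXD3. In untreated cells it was MXI1, MGA, MYCL, MXD4, MXD3, MNT and MXD1, from 7.88 RPKM for MXI1 to 1.33 RPKM for MXD1. Neighbours in these orders had separate values in the 3 libraries, except MXI1 and MYCL with monensin and MGA and MYCL untreated. That separation does not cover the choice of length, and the orders hold only per kb of merged exons. Per kb of longest transcript some neighbours would change places, such as MGA and MNT, or MXD1 and MXD3, with monensin.

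The make-up of the network's transcripts differed between the groups, with a smaller share for MYC under monensin. MYC held 50.2% ± 1.17 of the summed RPKM of the 9 genes with monensin and 57.6% ± 0.473 untreated. MXD4 held 8.54% ± 0.187 with monensin and 4.85% ± 0.0193 untreated, and MXD1 held 2.30% ± 0.248 and 1.13% ± 0.0340 in the same groups. MAX (15.7% with monensin and 13.6% untreated), MYCL (6.79% and 5.53%) and MNT (3.45% and 2.29%) also held larger shares with monensin. MXD3 (1.68% and 2.66%) and MGA (4.27% and 5.71%) held smaller ones, and the values of MXI1 (7.06% and 6.65%) overlapped. Together the 6 antagonists came to 33.8 ± 0.0589 RPKM with monensin and 27.6 ± 0.859 RPKM untreated, and MYC plus MYCL to 70.6 ± 2.73 RPKM with monensin and 74.8 ± 0.585 RPKM untreated. Their ratio was 0.495, 0.483 and 0.460 in the monensin libraries and 0.355, 0.383 and 0.370 in the untreated libraries. The antagonists thus stayed below MYC and MYCL in every library. The ratio is over transcripts, so it is given as a description, without a test.

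Within the antagonists, the balance between relatives also changed. MXD4 stood at 5.09 ± 0.0967 times the RPKM of MXD3 with monensin and 1.83 ± 0.168 times untreated. MXD1 stood at 1.38 ± 0.187 times that of MXD3 with monensin and 0.425 ± 0.0455 times untreated. Their order was thus turned round per kb of merged exons, but this depends on the length used. MXD3 has 5154 nt of merged exons and a longest transcript of 2279 nt, and MXD1 has 6351 and 5587 nt. Per kb of longest transcript MXD1 would stay below MXD3 in both groups. MNT stood at 0.810 ± 0.0702 times the RPKM of MGA with monensin and 0.405 ± 0.0458 times untreated.

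**Figure D4:**
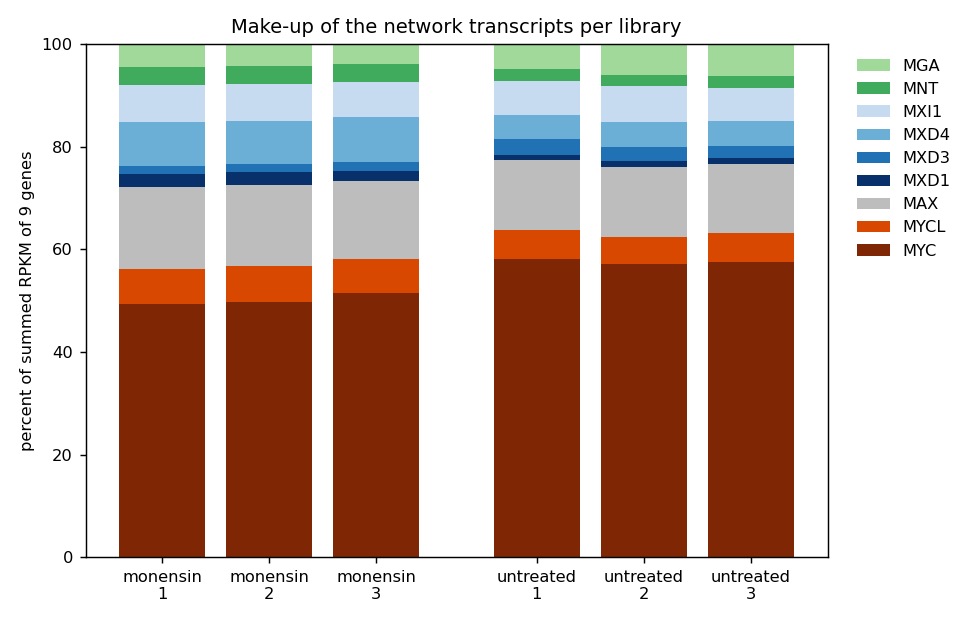
Share of each gene in the summed RPKM of the 9 network genes, one stacked bar per library, monensin libraries on the left and untreated on the right. The brown MYC segment covers 50.2% on average with monensin and 57.6% untreated, and the light blue MXD4 segment covers 8.54% and 4.85%.

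Promoter sequences show how the members differ at their own start sites. RefSeq promoters on GRCh38.p14, from 250 bases before to 50 bases after a start, were matched by symbol for 8 members (all but MYC), as 13 promoters. The E-box CACGTG, which reads the same on both strands, was found in 2 of the 13, those of MXD4 and MNT, and in 7.26% of all 35116 promoters in the table. TGATGNAA, the core of a site for ATF4 and C/EBP factors, was searched on both strands and found in 0 of the 13, against 3.62% of all promoters. These windows are shown because their genes had the highest fold changes of the network, and capitals mark CACGTG. The MXD4 promoter lies at chr4:2262060-2262359 on the minus strand with the match starting at position -238. The MNT promoter lies at chr17:2401011-2401310 on the minus strand with the match starting at position -193. The MXD1 promoter lies at chr2:69914859-69915158 on the plus strand and holds no CACGTG in this window.
MXD4: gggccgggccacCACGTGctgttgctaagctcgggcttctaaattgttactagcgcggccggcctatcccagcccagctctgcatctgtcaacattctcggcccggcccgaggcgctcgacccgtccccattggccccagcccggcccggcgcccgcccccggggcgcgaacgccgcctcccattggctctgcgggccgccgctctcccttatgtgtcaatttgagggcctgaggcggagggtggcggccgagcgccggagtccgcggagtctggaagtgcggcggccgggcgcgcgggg
MNT: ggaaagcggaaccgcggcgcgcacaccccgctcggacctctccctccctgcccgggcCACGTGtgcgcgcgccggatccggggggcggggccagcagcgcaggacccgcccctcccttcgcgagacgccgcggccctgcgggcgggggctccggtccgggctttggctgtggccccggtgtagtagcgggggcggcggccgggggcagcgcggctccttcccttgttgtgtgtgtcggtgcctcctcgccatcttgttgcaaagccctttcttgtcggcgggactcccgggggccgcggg
MXD1: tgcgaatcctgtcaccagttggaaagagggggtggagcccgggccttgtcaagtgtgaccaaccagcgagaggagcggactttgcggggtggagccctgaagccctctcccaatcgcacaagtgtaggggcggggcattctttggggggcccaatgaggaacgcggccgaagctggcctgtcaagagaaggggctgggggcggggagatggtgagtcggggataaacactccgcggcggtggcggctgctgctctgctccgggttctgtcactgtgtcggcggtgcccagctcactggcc

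The MLX branch is a parallel arm of the network in which MLX takes the place of MAX and pairs with the glucose-sensing factors MLXIP (MondoA) and MLXIPL (ChREBP). MLXIPL had 520, 485 and 554 counts in the monensin libraries and 198, 126 and 151 in the untreated libraries, and rose by 1.70 on the log2 scale (standard error 0.12, adjusted p = 3.33e-09). MLXIP rose by 0.25 (standard error 0.04, adjusted p = 0.00013), and by 0.14 after correction for GC content and length. MLX rose by 0.11 (standard error 0.04, adjusted p = 0.0342), a call that was lost under 11 of 15 alternatives.

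Genes known to be activated by MYC were mostly lower. The list of 47 was drawn from textbook knowledge, but with earlier results of these data known. All 47 were tested, and 37 fell, 4 rose and 6 were not called, with a median log2 fold change of -0.55. Of all tested genes 33.7% fell and 34.1% rose, and their median was 0.02. TERT, the telomerase catalytic subunit, had 48, 54 and 53 counts in the monensin libraries and 209, 162 and 221 in the untreated libraries, a log2 fold change of -1.95 (standard error 0.14). E2F2, an activator of the G1/S step, fell to 12.0 ± 0.602 CPM with monensin, against 40.7 ± 2.22 CPM untreated. CDC25A, the phosphatase that releases cyclin-dependent kinases, fell to 32.1 ± 0.373 CPM, against 101 ± 1.71 CPM untreated. ODC1, the first enzyme of polyamine synthesis and a classical MYC target, fell to 216 ± 9.04 CPM, against 428 ± 2.69 CPM untreated, and CAD, which starts pyrimidine synthesis, fell to 151 ± 2.73 CPM, against 235 ± 6.88 CPM.

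The 4 that rose were SLC7A5, SLC1A5, SHMT2 and CCND2. SLC7A5 and SLC1A5 carry amino acids into the cell and SHMT2 makes one-carbon units in mitochondria, and these 3 are also known as genes of the amino acid stress response. SLC7A5 stood at 442 ± 7.68 CPM with monensin and 212 ± 2.42 CPM untreated. SLC1A5 rose by 0.83 (standard error 0.04) and SHMT2 by 0.65 (standard error 0.04) on the log2 scale. CCND2, a D-type cyclin named after its values were seen, had 98, 86 and 81 counts with monensin and 58, 58 and 54 untreated. CDK4, the kinase that D-type cyclins bind, had a log2 fold change of 0.06 (standard error 0.04, adjusted p = 0.230). NPM1, a nucleolar chaperone, had one of -0.05 (standard error 0.04, adjusted p = 0.310), and its count is uncertain because it has many pseudogene copies.

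E-boxes were common in this list, which was drawn up from genes known as bound by MYC, so their frequency is no independent evidence. Of 41 targets in the promoter table, 22 held CACGTG in at least 1 promoter, which is 53.7%, against 8.77% of all 27305 genes in it. The 22 with a match had a median log2 fold change of -0.49 and the 19 without one of -0.60. Of the targets that fell, 17 of 34 held the motif, and of those that rose, both in the table did (SLC1A5 and SLC7A5). Over all tested genes in the table, the median log2 fold change was -0.01 for 1330 genes with CACGTG and -0.04 for 9221 without. The windows around the matches in ODC1 and MTHFD1 are shown as examples from targets that fell (MTHFD1, a one-carbon enzyme, was chosen after its values were seen), with 15 bases on each side and CACGTG in capitals. The ODC1 windows lie on the minus strand at chr2:10448021-10448056 and chr2:10447987-10448022 and the MTHFD1 window on the plus strand at chr14:64388323-64388358, all on GRCh38.p14.
ODC1 upstream: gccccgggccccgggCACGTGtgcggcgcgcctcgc
ODC1 downstream: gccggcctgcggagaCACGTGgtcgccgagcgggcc
MTHFD1: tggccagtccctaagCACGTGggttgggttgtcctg

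Genes known to be repressed by MYC were mixed. Of 13 in the list, 11 were tested, 4 rose (36.4%, against 34.1% of all tested genes), 2 fell (18.2%, against 33.7%) and 5 were not called. The share that rose was thus near that of all tested genes. Their median log2 fold change was 0.22, and 0.13 after correction for GC content and length. CDKN1A, the cyclin-dependent kinase inhibitor p21, had 659, 618 and 572 counts in the monensin libraries and 343, 343 and 376 in the untreated libraries, and rose by 0.78 (standard error 0.07). CEBPA, a myeloid transcription factor, stood at 799 ± 6.18 CPM with monensin and 499 ± 10.1 CPM untreated, a log2 fold change of 0.68, or 0.36 after correction for GC content and length. NDRG1 rose by 0.54 (standard error 0.06). CDKN1B, another kinase inhibitor, was the fourth to rise, by 0.22 (standard error 0.05). CDKN2C, a cyclin-dependent kinase inhibitor of the INK4 family, fell, with a log2 fold change of -0.23 (standard error 0.04), which was -0.45 after correction for GC content and length and -0.14 with total counts alone, as did GAS1, at -0.65 (standard error 0.15); CDKN1B and GAS1 were named after their values were seen.

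**Figure D5:**
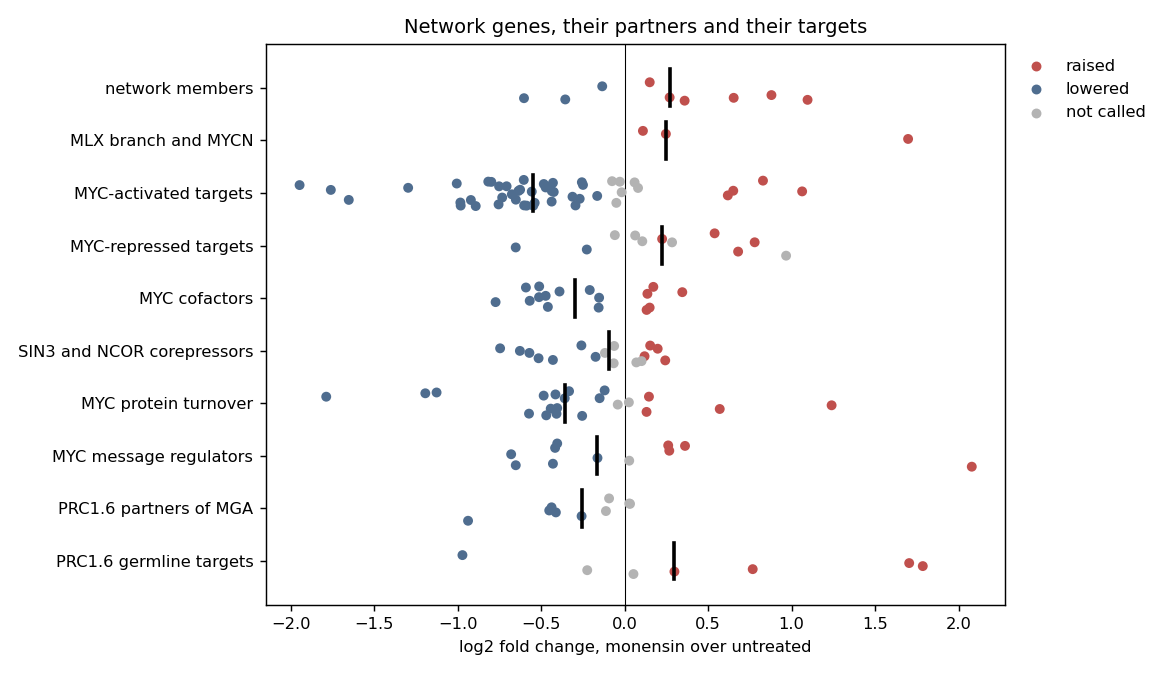
Log2 fold change, monensin over untreated, of every tested gene in the network and in 9 lists of partners, regulators and targets; red points rose, blue points fell, grey points were not called, and black bars are list medians. The MYC-activated targets lie mostly left of 0 (median -0.55), and the network members lie on both sides (median 0.27).

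Cofactors that MYC uses to open chromatin and release RNA polymerase fell for the most part. Of 16, 11 fell (68.8%, against 33.7% of all tested genes) and 5 rose (31.3%, against 34.1%), with a median of -0.30. TRRAP, the scaffold of histone acetyltransferase complexes, fell to 86.1 ± 4.79 CPM with monensin, against 147 ± 12.4 CPM untreated. HCFC1, another cofactor of MYC, had a log2 fold change of -0.59 (standard error 0.04), and the ATPase RUVBL1 one of -0.57 (standard error 0.05). ZBTB17, the protein MIZ1 through which MYC represses genes, rose by 0.34 (standard error 0.06), and by 0.13 after correction for GC content and length, and SUPT5H, an elongation factor, by 0.17 (standard error 0.04), a call lost after correction for GC content and length. KAT5, an acetyltransferase, rose by 0.15 (standard error 0.05), a call that 8 of 15 alternatives did not keep. The count of 5 raised was 3 without monensin library 3 or without untreated library 1, 2 or 3, and 1 after correction for GC content and length.

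The SIN3 and NCOR corepressors, the machinery used by MXD proteins and MNT, were mixed. Of 16, 7 fell (43.8%, against 33.7% of all tested genes), 4 rose (25%, against 34.1%) and 5 were not called, with a median of -0.09. SIN3A, the scaffold that MXD proteins bind directly, had 2407, 2158 and 2126 counts in the monensin libraries and 3213, 3224 and 3358 in the untreated libraries, a log2 fold change of -0.57 (standard error 0.05). Its relative SIN3B rose by 0.15 (standard error 0.05), a call lost or turned round under 6 of 15 alternatives. RBBP7, a histone-binding subunit, fell to 159 ± 4.44 CPM, against 267 ± 5.41 CPM untreated, and ING2 had a log2 fold change of -0.63 (standard error 0.07). ARID4B, a subunit of SIN3 complexes, rose by 0.24 (standard error 0.04), and by 0.53 after correction for GC content and length. The count of 4 raised was 2 without untreated library 2 or 3.

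Genes that set the lifetime of MYC protein were mostly lower, on both sides of the balance. Of 21, 15 fell (71.4%, against 33.7% of all tested genes), 4 rose (19.0%, against 34.1%) and 2 were not called, with a median of -0.36. SKP2, a ubiquitin ligase subunit for MYC and for p27, fell to 49.8 ± 2.07 CPM with monensin, against 172 ± 4.84 CPM untreated. CIP2A, which shields MYC from phosphatase PP2A, had a log2 fold change of -1.19 (standard error 0.06), and the deubiquitinase USP37 one of -1.13 (standard error 0.07). FBXW7, the main ligase subunit that marks phosphorylated MYC for destruction, had 709, 729 and 634 counts in the monensin libraries and 863, 863 and 846 in the untreated libraries, a log2 fold change of -0.33 (standard error 0.06), or -0.22 after correction for GC content and length. TRPC4AP, a ligase adaptor for MYC, rose by 0.57 (standard error 0.04) and FBXO32, named after its values were seen, by 1.24 (standard error 0.16). PPP2R5A, a PP2A subunit, rose by 0.14 (standard error 0.05) and the scaffold AXIN1 by 0.13 (standard error 0.05). PPP2R5A lost its call under 4 of 15 alternatives, and AXIN1 lost its call or turned round under 8. The count of 4 raised was 2 without monensin library 1 or untreated library 3.

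Factors that act on the MYC message or its locus were mixed. Of 11 tested, 6 fell (54.5%, against 33.7% of all tested genes) and 4 rose (36.4%, against 34.1%). ELAVL1, an RNA-binding protein that stabilizes or shields AU-rich messages, had a log2 fold change of -0.68 (standard error 0.04), FUBP1, which binds a far upstream element of MYC, one of -0.65 (standard error 0.04), and HNRNPD one of -0.43 (standard error 0.04), or -0.20 after correction for GC content and length. PVT1, the long noncoding RNA gene beside MYC on chromosome 8, had 663, 675 and 660 counts with monensin and 574, 433 and 530 untreated, and rose by 0.36 (standard error 0.08, adjusted p = 0.000529), while MYC was lowered. PABPC1, the poly(A)-binding protein, rose by 0.27 (standard error 0.03), and ZFP36, which speeds the decay of AU-rich messages, by 0.26 (standard error 0.06), a call lost after correction for GC content and length (log2 fold change 0.01). ZFP36L1, its relative and named after its values were seen, stood at 5.34 ± 0.732 CPM with monensin and 1.26 ± 0.216 CPM untreated. The list's median was -0.16, and 0.01 after that correction.

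Partners of MGA in PRC1.6 were lower or not called. Of 9, 5 fell (55.6%, against 33.7% of all tested genes), 0 rose (against 34.1%) and 4 were not called, with a median of -0.26, and 1 rose after correction for GC content and length. TFDP1, the dimer partner of E2F proteins, fell to 204 ± 0.733 CPM with monensin, against 391 ± 7.26 CPM untreated. PCGF6, the subunit that defines this complex, had a log2 fold change of -0.45 (standard error 0.06), and L3MBTL2 one of -0.44 (standard error 0.05).

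Germline genes that PRC1.6 keeps silent in mouse cells mostly had very few counts. Of 16, 7 passed the filter on low counts, which keeps a gene that is high in either group, and 4 had 0 counts in every library. Of the 7, 4 rose, 1 fell and 2 were not called, where 34.1% of all tested genes rose and 33.7% fell. MEI1, a meiosis gene, had 392, 358 and 338 counts in the monensin libraries and 117, 94 and 118 in the untreated libraries, a rise of 1.70 on the log2 scale (standard error 0.09). ZCWPW1, a histone reader of meiotic cells, rose by 0.77 (standard error 0.11), TDRKH by 0.30 (standard error 0.10), a call lost under 5 of 15 alternatives, and STAG3, a meiotic cohesin subunit named after its values were seen, by 1.79 (standard error 0.15). MEIOC, which prolongs meiosis, fell to 11.7 ± 0.757 CPM, against 22.9 ± 1.30 CPM untreated.

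The genes whose levels over the 6 libraries were most like those of a member were sought by the smallest Euclidean distance of log2 CPM, centred per gene, among the 11555 tested genes that averaged 2 or more in log2 CPM. For MYC they were FSCN1, an actin-bundling protein (distance 0.0297), GNL1 (0.0337) and KIAA1191 (0.0371), with log2 fold changes of -0.15, -0.16 and -0.13. For MXD1 they were DENND5A (distance 0.0631), EVI2A (0.108) and APOL6 (0.112), with log2 fold changes of 1.08, 1.10 and 1.01. For MXD3 they were TOMM40, the channel of the outer mitochondrial membrane (distance 0.0722), FUOM (0.0763) and CD320 (0.0780), with log2 fold changes of -0.60, -0.59 and -0.55. Likeness over 6 libraries in 2 groups rests mostly on the difference between the groups.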

How the data were processed

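For each of the 6 libraries the authors deposited a table of raw counts by Ensembl gene, not normalized. Per the labels' protocols, total RNA was isolated with Trizol, a directional NEBNext kit was used for the libraries, and 75 bp single reads came from a NextSeq instrument. Per the submitters' processing notes, reads were handled with HTSeq 0.11.1 and HISAT2 2.1.0 along with Trimmomatic 038 and bcl2fastq, on build hg38 (GRCh38), and DESeq2 1.22.2 is also listed. The labels do not state which annotation release was counted, or whether by strand. Also deposited by the authors was a list of 2410 genes with log2 fold changes, without errors or p-values.

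The 5 tally lines of each table, 19.1% to 22.0% of tallied alignments, entered neither the library sizes nor the tests. The test was the quasi-likelihood F test of edgeR 4.0.16 (R 4.3.3) on treatment, applied after TMM scaling and after filterByExpr had removed low genes, with Benjamini-Hochberg adjustment over the 16542 genes left. Positions and lengths came from GENCODE 29 on GRCh38, which holds 99.79% of the gene IDs, and RPKM is TMM-scaled CPM per kb of merged exons. The 15 alternatives were RLE size factors, total counts alone, a block on replicate number, the DESeq2 1.42.0 test, no filter, a filter of 1 CPM in 3 libraries with 50 counts in total, an adjusted p under 0.01, each library left out, correction for trends of GC content and length, and no mitochondrial genes.

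The members and lists were chosen with earlier results of these data known. All 179 list entries were matched. Named genes are the members, the MLX branch, up to 3 called genes per list and direction with the largest change whose mean log2 CPM reached 2, the 3 genes most like MYC, MXD1 and MXD3, and 8 anchors (ODC1, NPM1, CDK4, CAD, TERT, CDKN1A, FBXW7 and PVT1); others are marked as named after their values were seen. The values of 1 gene that this rule names are not reported here. The fit was tested on simulated data with 200 changed genes. It recovered 60% of 1.25-fold, 78% of 1.5-fold, 94% of 2-fold and 100% of 4-fold changes, with 17 false calls. No 2 libraries of a group agreed within sampling noise (chi-square per degree of freedom 1.93 to 5.09).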

Additional observations from a re-analysis of the deposited data

Results flagged for a closer look

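A signal outside the counted genes differed between the groups: reads assigned to no annotated gene made up 10.9% of tallied alignments in monensin libraries and 8.80% in untreated libraries, and these reads enter no comparison of the network genes.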

How the results depend on the processing

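Directions of all 9 network genes were the same under the 15 alternatives, and 7 of the genes also kept their call under each. MYC lost its call with total counts alone (-0.049), at an adjusted p under 0.01 (-0.13) and without monensin library 1 (-0.11). Without single libraries its log2 fold change ran from -0.17 to -0.11. MXI1 lost its call with no filter (0.13), at an adjusted p under 0.01 (0.15) and with DESeq2 (0.14). It also lost its call without monensin library 1 or 2 or untreated library 1 or 3. The call of MXI1 held without monensin library 3 or untreated library 2. Without single libraries its log2 fold change ran from 0.10 to 0.19. Total counts alone moved the median of all genes by 0.09 on the log2 scale.

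Small counts of raised genes moved most. Raised cofactors numbered 2 with no filter, 3 at an adjusted p under 0.01 and with DESeq2, 1 after correction for GC content and length, and 3 to 5 without single libraries. Raised genes of MYC protein turnover numbered 2 with no filter and at an adjusted p under 0.01, and 2 to 4 without single libraries. Raised corepressors numbered 2 with no filter, at an adjusted p under 0.01 and with DESeq2, and 2 to 5 without single libraries. Of the PRC1.6 partners, 1 rose after correction for GC content and length. That correction turned round AXIN1 (-0.074), CDK4 (-0.098), KAT5 (-0.051), SIN3B (-0.010) and NPM1 (0.056), and NPM1 was 0.035 with total counts alone. Of 49 genes outside the network that were named by rule from the lists or as anchors, 38 had the same result under every alternative run. The genes most like a member, and those named after their values were seen, were not among the 49. The cause of these changes was not tested. With the longest transcript in place of merged exons, the ratio of antagonists to MYC plus MYCL was 0.556 with monensin and 0.431 untreated, and the share of MYC 46.3% and 53.7%, because the lengths differ.

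Replicate numbers did not pair the libraries: same-numbered libraries correlated at -0.12, 0.14 and 0.04 in their deviations from the group means, and 3 of 6 libraries matched their own number best. With the replicate number as a block, 5515 genes rose and 5435 fell, against 5638 and 5570 without it, and the log2 value for MYC was -0.14 (adjusted p = 0.0266); the calls of all 9 network genes were the same. Every member had at least 205 counts in each library, so low depth limits mainly the germline genes.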
